A study of Mus musculus with 4 samples.

Results

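The cells described here are splenic CD4 T cells that carried a high level of Egr3 transcript 6 hours after stimulation. They were chosen from droplet single-cell RNA counts in 2 steps. A barcode was kept as a T cell with at least 2000 unique molecular identifiers (UMIs, 1 per captured RNA molecule), at least 500 detected genes, at most 10% mitochondrial UMIs and at least 1 UMI of Cd3e, Cd3d or Cd3g. Among these, Egr3-high cells had at least 2 raw UMIs of Egr3 and none of Foxp3. They numbered 1649 of 17969 T cells (9.18%), and the other 15524 cells without Foxp3 served as the comparison, called the other cells below. A further 29 T cells with at least 2 Egr3 UMIs were left out because they held Foxp3. Egr3 itself chose the cells, so its level is a description, and so is every contrast between the Egr3-high and the other cells.

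The libraries came from C57BL6/J mice. Spleen cells were sorted for CD3 and CD4 and cultured with beads carrying antibodies to CD3 and CD28, in medium with serum, so all 4 libraries share the stimulation and none is unstimulated. Each sex gave 1 library labelled Irf5-/- (knockout) and 1 labelled WT. The labels give no age, batch, number of mice per library or detail of the deleted exons. The p-values below therefore speak only of these 4 samples. With terms for sex and label, 4 libraries leave little to estimate each gene's spread, so the gene tests borrow spread across genes. Values of the 4 libraries are given throughout in the order female labelled knockout, male labelled knockout, female labelled wild type and male labelled wild type. In that order the libraries held 355, 588, 190 and 516 Egr3-high cells of 5622, 6204, 1702 and 4441 T cells.

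EGR3 and its relatives EGR1 and EGR2 are zinc-finger transcription factors made within the first hours after the T cell receptor binds its ligand. Calcium signals through calcineurin and NFAT, and RAS to MAP kinase signals through serum response factor, drive their genes. In T cells EGR2 and EGR3 are known both for supporting the early response and for inducing brakes on receptor signalling.

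The library totals ran from 28841161 to 55850754 UMIs, and the Egr3-high cells of a library summed to between 1693516 and 5387420 UMIs. Median UMIs per Egr3-high cell were 5111, 7084.5, 8471.5 and 9712, against 5215, 6848, 8537.5 and 9788.5 for the other cells of the same libraries, so the groups had similar depth. Cells with a high doublet score made up 6.48%, 9.01%, 0.526% and 6.78% of the Egr3-high cells and 4.99%, 4.83%, 1.56% and 3.24% of the other cells. Droplets with fewer than 200 UMIs, taken as free RNA, held between 8.62% and 36.2% of a library's UMIs, the most in the female library labelled wild type. Egr3 stood at 47.8 to 61.6 counts per 1000000 UMIs (CPM) in that free RNA. None of 32 erythroid-like barcodes (at least 20 UMIs of the erythroid markers) had an Egr3 UMI at a median of 18083.5 UMIs, which allows a share of up to 9.375%. Pairs of libraries shared 2 to 13 T cell barcodes, and no barcode was an Egr3-high cell in both libraries of a pair.

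The Egr3-high cells carried T cell transcripts and little of other lineages. Trac, the constant segment of the alpha receptor chain, stood at 914 CPM against 633 CPM in the other cells. A Cd4 UMI was found in 16.9%, 19.9%, 26.3% and 31.2% of Egr3-high cells, against 21.8%, 27.6%, 29.5% and 37.5% of the other cells, and Cd8a in at most 0.526% of Egr3-high cells. All 13 myeloid markers and all 10 erythroid markers were under 5 CPM, with C1qa, C1qb, Cd14, Itgax and S100a8 at 0 UMIs. Of the 355, 588, 190 and 516 Egr3-high cells, 276, 474, 133 and 407 held no UMI of the B cell, NK and gamma-delta, erythroid, myeloid or CD8 markers. The summed level in the Egr3-high cells of a library was 1.77 to 4.37 CPM for the myeloid list, 3.90 to 25.4 CPM for the erythroid list, 13.9 to 19.9 CPM for the B cell list and 4.13 to 15.04 CPM for the NK and gamma-delta list. The other cells ranged from 1.58 to 10.7, 7.22 to 142.9, 22.1 to 198 and 10.01 to 24.6 CPM for the same lists.

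**Figure D1:**
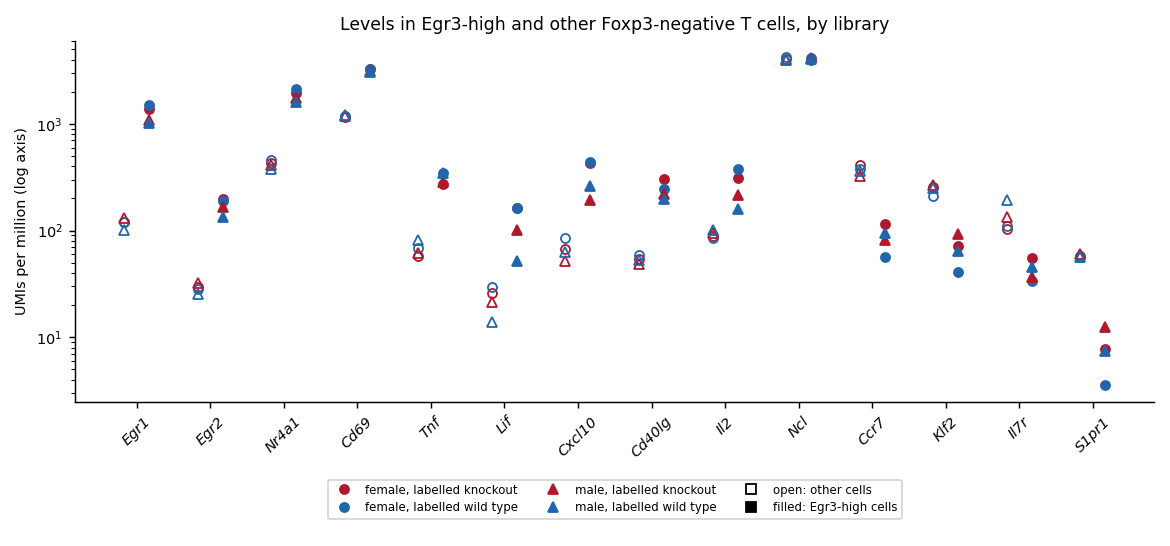
Levels of 14 genes in CPM (log axis), for the Egr3-high cells (filled) and the other Foxp3-negative cells (open) of each library; circles are female and triangles male libraries, red labelled knockout and blue labelled wild type. Filled points of Egr1 to Il2 lie above the open points, those of Ncl overlap them, and those of Ccr7 to S1pr1 lie below.

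Of 4967 genes at 20 CPM or more (the mean of both pooled levels), 93 were at least 2-fold higher in the pooled sums and higher within all 4 libraries, which is 1.87% of those measured. Another 46 (0.926%) were at least 2-fold lower and lower within all 4. At any size of ratio, 66.9% of the 4967 genes had the same direction in all 4 libraries. The median log2 ratio over all 4967 genes was -0.05. These shares are the background for the counts below, and log2 ratios use a pseudocount of 1 CPM.

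The partners of EGR3 had the highest median ratio of the lists. Egr1, which binds the same GC-rich DNA as EGR3, stood at 1386, 1076, 1489 and 1029 CPM in the Egr3-high cells and at 119, 132, 119 and 101 CPM in the other cells. All 4 Egr3-high values lay above all 4 of the other cells, with a pooled log2 ratio of 3.29. Egr2 stood at 197, 165, 188 and 136 CPM against 29.5, 32.2, 28.5 and 25.7 CPM, a log2 ratio of 2.43. The co-repressors that bind EGR proteins were higher too, Nab2 with 1.98 and Nab1 with 1.10. All 4 measured genes of the list of EGR factors and NAB co-repressors were thus at least 2-fold higher (median 2.21). Egr4 was at only 1.74 CPM, under the level needed to count it.

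Of the AP-1 and ATF factors, which pair as dimers on activation genes, 4 of 7 were at least 2-fold higher and none was lower (median 1.65). Fosl2 reached a log2 ratio of 2.04, Atf3 2.01, Fos 1.92 and Junb 1.65, whereas Jun (0.80), Jund (0.89) and Batf (0.42) stayed below 1. Fosb was rare, at 30.6, 37.1, 28.3 and 25.99 CPM against 3.30, 2.51, 1.75 and 1.94 CPM, with a log2 ratio of 3.21. In the list of NR4A, NFAT and IRF factors 7 of 11 were higher (median 1.10). The orphan receptors Nr4a1, Nr4a2 and Nr4a3, which report recent receptor signalling, had log2 ratios of 2.10, 1.98 and 2.15. Nr4a1 stood at 1958, 1731, 2116 and 1619 CPM against 429, 415, 455 and 381 CPM, with no overlap between the cell groups. Irf8 (1.56), Tbx21 (1.48), Irf1 (1.10) and Nfatc1 (1.07) were also higher, while Irf4, the factor that scales with receptor signal strength, was nearly level (0.29) and Gata3, the Th2 factor, was at -0.41.

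Of 11 other immediate early genes, 7 were at least 2-fold higher and 1 was lower (median 1.30). Zfp36, which promotes the decay of AU-rich cytokine mRNAs, stood at 203, 121, 175 and 130.1 CPM against 36.6, 32.6, 36.5 and 30.4 CPM (log2 ratio 2.07). Ier2 (1.82), Btg2 (1.62), Tagap (1.48), Gadd45b (1.42), Ier5 (1.30) and Zfp36l1 (1.22) followed. The exception was Klf6, a zinc-finger factor, at 31.04, 43.1, 41.9 and 40.8 CPM against 87.2, 83.4, 87.1 and 78.3 CPM (-1.03).

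The promoter sequences of the higher genes were searched for short motifs known from immediate early and inflammatory genes. RefSeq windows on GRCm38.p6 were used, taking the 250 bases before each start, and 22 of the 25 genes with the highest log2 ratios matched. Shown are the windows of Egr2 (chr10:67537619-67537868, plus strand), Nr4a1 (chr15:101266596-101266845, plus strand) and Cxcl10 (chr5:92348890-92349139, minus strand), none of which overlaps an exon of its gene in GENCODE M21. Capitals mark a CArG box, the serum response factor motif, in Egr2, the complement of GCGNGGGCG, the EGR motif, in Nr4a1, and kappaB sites, which NF-kB binds, in Cxcl10. Each is written 5′ to 3′ on the strand of its gene.
Egr2: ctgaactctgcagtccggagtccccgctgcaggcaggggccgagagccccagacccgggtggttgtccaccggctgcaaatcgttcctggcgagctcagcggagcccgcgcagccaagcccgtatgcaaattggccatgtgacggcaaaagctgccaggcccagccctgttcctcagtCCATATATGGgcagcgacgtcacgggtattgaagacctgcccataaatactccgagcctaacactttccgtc
Nr4a1: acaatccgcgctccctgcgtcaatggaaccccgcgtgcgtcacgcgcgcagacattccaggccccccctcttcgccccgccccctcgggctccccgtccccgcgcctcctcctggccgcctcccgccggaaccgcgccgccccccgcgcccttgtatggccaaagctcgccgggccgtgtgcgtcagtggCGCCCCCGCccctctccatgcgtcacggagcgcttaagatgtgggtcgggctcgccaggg
Cxcl10: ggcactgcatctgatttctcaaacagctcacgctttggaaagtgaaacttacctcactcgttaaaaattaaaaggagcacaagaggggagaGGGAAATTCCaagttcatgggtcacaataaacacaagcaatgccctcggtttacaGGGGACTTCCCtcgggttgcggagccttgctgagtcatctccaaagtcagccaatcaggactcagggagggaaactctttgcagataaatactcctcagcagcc
The CArG box of Egr2 lay 72 to 63 bases before the start and the Nr4a1 motif 60 to 52 bases before it. In Cxcl10 the kappaB matches lay 159 to 150, 104 to 95 and 103 to 94 bases before the start, the last pair overlapping. Over the 22 genes, on either strand, a CArG box was found in 2 (9.09%, Egr2 and Zfp36) against 1.62% of 27025 genes. GCGNGGGCG was found in 5 (22.7%) against 5.33%, kappaB sites in 8 (36.4%) against 8.23% and TGANTCA, the AP-1 motif, in 5 (22.7%) against 7.82%. TGACG, a core of the cyclic AMP response element, was found in 12 (54.5%) against 19.8%, and it can overlap the other motifs. The 22 genes were chosen on the counts, and a match in these letters is a description only.

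Genes of the signalling steps were less uniform. Of 10 genes of the receptor complex and its proximal signalling only Lcp2, which encodes the adaptor SLP-76, was at least 2-fold higher, with 904, 918, 1147 and 730.2 CPM against 231, 232, 246 and 174 CPM (2.02; list median 0.24). Lck, the first kinase of the pathway, was at 0.95, and Zap70 and Lat at 0.22 and 0.21. Of 13 NF-kB subunits and inhibitors 4 were higher and none was lower (median 0.87). Nfkbid, an atypical nuclear IkB protein, led with 1072, 1005, 1063 and 947 CPM against 204, 206, 201 and 203 CPM (2.29), followed by Rel (1.40), Traf1 (1.36) and Nfkbiz (1.36). Of 7 MAP kinase feedback genes, the phosphatase gene Dusp2 was higher (1.72) and Dusp10, a phosphatase for the stress kinases, was lower (-1.40).

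The brakes linked to EGR2 and EGR3 did not form a block. Of 9 measured, Cish (1.13) and Socs1 (1.12), inhibitors of cytokine receptor signalling, were at least 2-fold higher in all 4 libraries. The ubiquitin ligases Cblb (-0.091) and Itch (-0.31) and the diacylglycerol kinases Dgka (-0.43) and Dgkz (-0.43), which limit receptor signalling, were level or below. The list median was 0.37. Cdkn1a, the cell cycle inhibitor p21, stood at 29.6, 65.9, 74.4 and 147 CPM against 31.2, 38.8, 41.9 and 37.8 CPM, so it was not higher in every library.

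**Figure D2:**
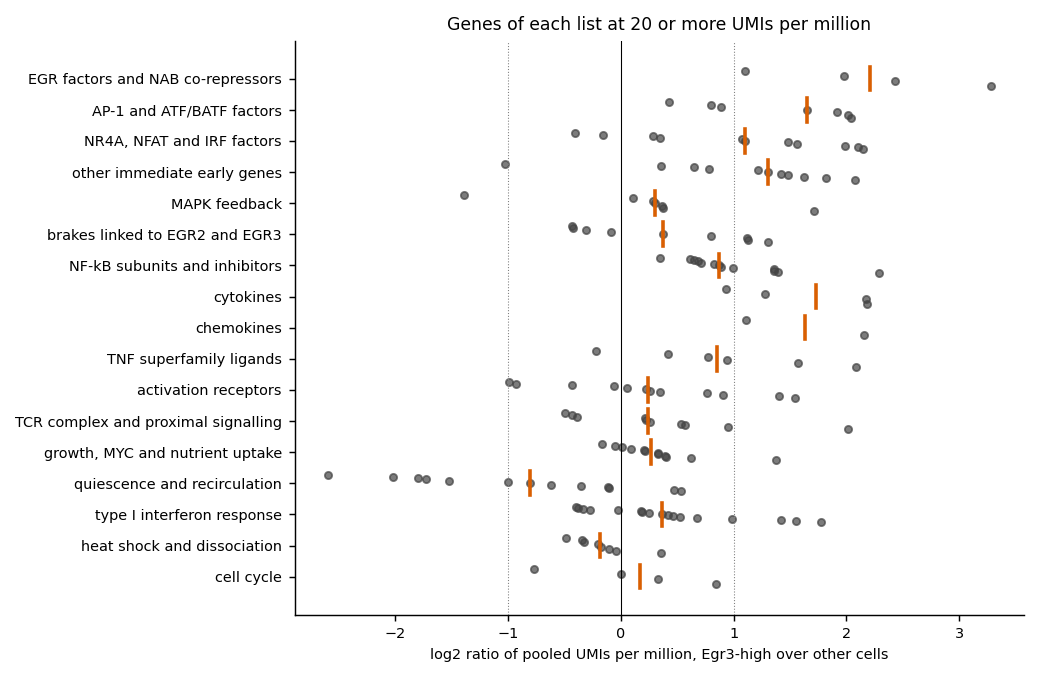
Log2 ratio of pooled CPM, Egr3-high over other cells (x axis), for every gene of each list at 20 or more CPM; each grey point is a gene, orange bars are list medians and dotted lines mark 2-fold. EGR, AP-1, NR4A and immediate early genes lie mostly to the right, and quiescence genes to the left.

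Effector molecules were higher in the Egr3-high cells. Of 4 cytokines at 20 CPM or more, 3 were at least 2-fold higher (median 1.73) and Tgfb1 was just short of that (0.93). Tnf stood at 275, 283, 344 and 346 CPM against 58.3, 62.3, 68.4 and 82.2 CPM (2.18). Lif, a cytokine of the IL-6 family, stood at 162, 102, 164 and 51.8 CPM against 25.9, 21.4, 29.9 and 14.03 CPM (2.18), lowest in the male library labelled wild type in both cell groups. Il2, the T cell growth factor, stood at 308, 217, 381 and 161 CPM against 88.02, 94.4, 85.7 and 100.3 CPM (1.28), and its ratio ran from 0.67 to 2.14 between libraries. Cxcl10, a chemokine for CXCR3-bearing cells, stood at 426, 192, 437 and 261 CPM against 67.2, 52.3, 85.2 and 62.9 CPM (2.16), and Ccl4 at a log2 ratio of 1.11. Ifng, Il4 and Csf2 were all under 10 CPM in the Egr3-high cells.

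Surface molecules were mixed. Cd40lg, the ligand with which helper cells activate B cells, stood at 301, 219, 243 and 197 CPM against 53.8, 48.5, 58.6 and 53.2 CPM (2.09), and Lta at 1.57, making 2 of 6 TNF superfamily ligands at least 2-fold higher (median 0.86). Of 12 activation receptors, Cd69, the early marker that holds cells in the tissue, stood at 3269, 3129, 3280.2 and 3073 CPM against 1158, 1192, 1191 and 1216 CPM (1.40) and Slamf1 at 1.55, the 2 that were at least 2-fold higher. The list median was 0.24. Il2ra (0.34), Tnfrsf4 (-0.064) and Icos (0.23) were near level and Tnfrsf9 (-0.93) and Cd28 (-0.99) were lower. Sema7a (2.64), a membrane-anchored semaphorin, Slamf7 (2.27) and Icam1 (2.003), an adhesion ligand, were among the 25 highest genes and belong to none of the lists. So were Csrnp1 (2.45), Plk3 (2.07), Prnp (2.01), Arl5b (1.98), Rrad (1.93) and Rgcc (1.83).

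Shares of cells with a UMI were also compared at equal depth. With every cell thinned to 2000 UMIs, Egr1 was detected in 69.7% to 75.8% of Egr3-high cells over the 4 libraries and in 12.3% to 15.8% of other cells (unthinned 89.1% to 92.1% and 22.9% to 30.4%). The erythroid-like barcodes, thinned alike, gave 21.9% for Egr1, so the share in the other cells did not exceed that background. Nr4a1 was detected in 87.2% to 90.4% against 34.7% to 37.3% (erythroid-like 6.25%), and Cd69 in 96.3% to 98.9% against 60.1% to 61.6% (erythroid-like 9.38%). Tnf was detected in 32.96% to 42.8% against 8.41% to 11.1%, and Lif in 8.33% to 25.4% against 2.28% to 4.89%, with 0 of 32 erythroid-like barcodes for each. Il2 differed less, 7.89% to 10% against 4.64% to 5.94% (erythroid-like 0 of 32). So did Ccl4, 3.66% to 7.37% against 1.78% to 3.40% (erythroid-like 1 of 32). For Cxcl10 the erythroid-like share of 21.9% lay within the range of the Egr3-high cells (16.3% to 28.2%), so no order is read from its share. Of 5 effector genes without Cxcl10 (Tnf, Lif, Il2, Ccl4 and Cd40lg), none was detected in 35.4% of Egr3-high cells, 77.5% of other cells and 31 of 32 erythroid-like barcodes after thinning.

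The 46 lower genes included several of quiescent, recirculating T cells. Of 13 measured genes of that list 6 were at least 2-fold lower and none was higher (median -0.81). S1pr1, the receptor with which T cells leave lymphoid organs, stood at 7.76, 12.6, 3.54 and 7.42 CPM against 56.4, 60.8, 58.1 and 55.98 CPM (-2.60). Ccr7, the homing receptor for lymph nodes, stood at 114, 81.1, 56.1 and 94.5 CPM against 412, 322, 377 and 360.4 CPM (-2.02). Klf2, the factor that maintains S1pr1, was at -1.80, Il7r, the IL-7 receptor chain, at -1.73, and Klf3 and Tcf7 at -1.53 and -1.003. For these 6 genes each library's Egr3-high cells lay below its other cells, as the rule that counted them required. Rflnb (-2.09), Arl4c (-2.01), Txnip (-1.98), a glucose uptake inhibitor, Cdkn1b (-1.54), which encodes the cell cycle inhibitor p27, and Tsc22d3 (-1.49) completed the lowest genes, together with Faah, Pdk1 and Mrpl34. Ighm was among them at -2.003, but the other cells of the female library labelled knockout held 188 CPM and those of the remaining libraries 21.1 to 26.3 CPM. The list also held genes that were not lower, Btg1 at 0.53 and Satb1 at 0.47.

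Growth and stress genes were close to level over the group as a whole. Of 12 growth genes only Myc was at least 2-fold higher, at 809, 598, 801 and 607 CPM against 274, 225, 296 and 252 CPM (1.37; list median 0.27). Ncl, which encodes the abundant nucleolar protein nucleolin, stood at 4008, 4151, 4168 and 4032 CPM against 4091, 3985, 4219.6 and 4034 CPM (0.012), with the cell groups overlapping. None of 8 heat shock genes (median -0.19) and none of 4 cell cycle genes (median 0.17) was 2-fold apart.

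The average concealed a gradient within the Egr3-high cells. By raw Egr3 UMIs 611 of them had exactly 2, 451 had 3 to 4, 287 had 5 to 7 and 300 had 8 or more. Just outside the rule were 1469 cells with 1 Egr3 UMI. Egr1 stood at 343 CPM in these and at 577 CPM in cells with exactly 2, against 89.7 CPM in cells without Egr3. It reached 901, 1356 and 2752 CPM in the next bins. The bins were set with the values known and are described without a test. Between 8 or more and exactly 2 Egr3 UMIs, 350 of 4967 genes (7.05%) were at least 2-fold higher with the same direction in 4 libraries. By the same rule 409 (8.23%) were at least 2-fold lower. The median log2 ratio was -0.13, and 2036 of the 4967 genes were above 0. Median depth was lower in the cells with 8 or more, 4542, 6291, 7344 and 8378.5 UMIs, against 5470, 7596, 9122 and 10209.5 UMIs with exactly 2, and the part of depth in these ratios was not tested.

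Many immediate early genes were higher in the cells with the most Egr3. Zfp36 stood at 83.8, 51.6, 64.1 and 64.7 CPM in cells with exactly 2 Egr3 UMIs and at 611, 368, 517 and 328 CPM in cells with 8 or more (log2 ratio 2.67). Of 11 measured immediate early genes 6 were at least 2-fold higher in the top bin, of 7 AP-1 and ATF factors 5, and of 4 EGR and NAB genes 3, with none at least 2-fold lower. Of the 11 immediate early genes 9 were above 0, and Bhlhe40 (-0.31) and Klf6 (-0.59) were below. Jun, below 2-fold in the group as a whole, had a ratio of 2.26, Btg2 2.15 and Irf1 1.95. Cd69 reached 5036, 4306, 4716 and 3941 CPM in the top bin. Of the 2 chemokines measured, Cxcl10 was higher there than at 2 Egr3 UMIs (2.20) and Ccl4 lower (-1.99).

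Most quiescence genes were not lower still along this gradient, 9 of 13 being above 0 (median 0.32), against 2036 of all 4967 genes. Il7r stood at 111, 148, 119.9 and 214 CPM in cells without Egr3, at 32.5, 18.96, 14.2 and 14.003 CPM with exactly 2 Egr3 UMIs and at 126, 117, 56.5 and 145 CPM with 8 or more. The bin at 2 thus lay below both in every library, although the top bin did not exceed the cells without Egr3 in the male library labelled knockout, the female labelled wild type or the male labelled wild type. Lef1 (1.07), a factor of naive T cells, and S1pr1 (1.22) were at least 2-fold higher in the top bin than at 2 as well. S1pr1 stood at 5.002, 8.95, 5.34 and 7.24 CPM with 2 Egr3 UMIs and at 10.8, 31.7, 5.65 and 16.5 CPM with 8 or more, under its 60.2, 67.6, 63.9 and 62.1 CPM in cells without Egr3. Of 13 quiescence genes 4 were at least 2-fold higher and 1, Ccr7, was lower (-1.29). Ccr7 stood at 116, 117, 80.1 and 132 CPM with 2 Egr3 UMIs and at 57.5, 49.1, 28.3 and 51.5 CPM with 8 or more.

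Of the 12 growth genes 3 (Ncl, Npm1 and Polr1b) were at least 2-fold lower in the top bin than at 2 and none was 2-fold higher (median -0.78), while Myc was above 0 (0.61). Ncl stood at 4029, 3897, 4132 and 3928 CPM without Egr3, at 5057, 4653, 5161 and 4815 CPM with 2 and at 1716, 1928, 1954 and 2393 CPM with 8 or more, so in every library cells with 2 were above those without Egr3 and the top bin was below both. Summed over the growth list, the level was 15389.7, 14961, 16072 and 15121 CPM at 2 and 6892, 7814, 8101 and 9312 CPM at 8 or more. Ncl and Npm1, the gene of the nucleolar protein nucleophosmin, made up much of that sum. Of 8 heat shock genes 3 were at least 2-fold lower and 1, Dnajb1, at least 2-fold higher (1.08; list median -0.72). Hspd1, a mitochondrial chaperone gene and 1 of those lower, was at 782, 788, 737 and 761 CPM and then 173, 227, 204 and 338 CPM. Sla, an adaptor that lowers receptor signalling (-1.15), and Tnfrsf4, the costimulatory receptor OX40 (-0.99), were lower in the top bin too. Of the 9 brake genes measured, 2 were at least 2-fold higher, Dgka (2.02) and Socs1 (1.27). Another 2, Sla and Ndrg1, were at least 2-fold lower (list median -0.018).

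**Figure D3:**
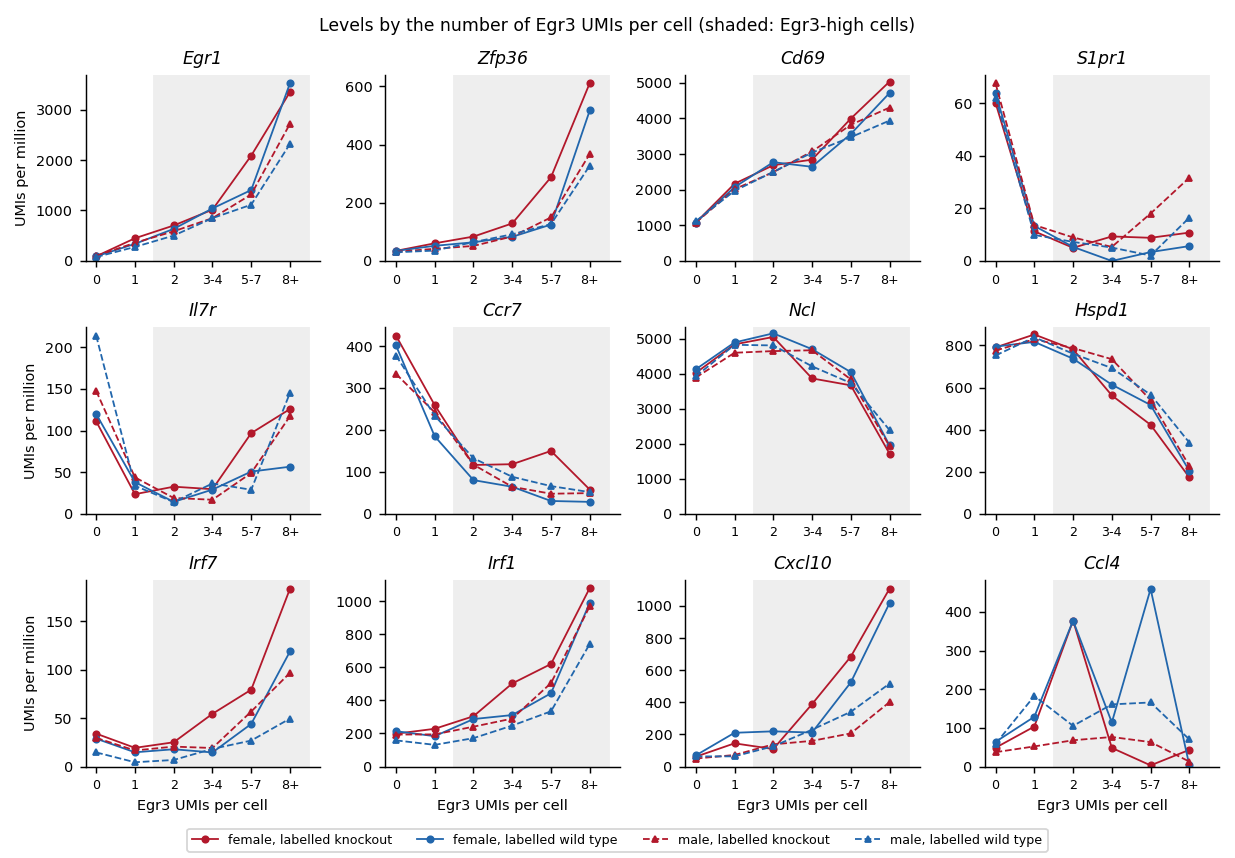
Levels of 12 genes in CPM (y axes) by the number of Egr3 UMIs per cell (x axes), with a line for each library; red is labelled knockout, blue labelled wild type, solid female, dashed male, and the shaded bins are the Egr3-high cells. Egr1, Zfp36 and Cd69 climb with Egr3, Il7r dips and returns, and Ncl and Hspd1 are lowest in the top bin.

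Genes of the type I interferon response had the largest median change of the 17 functional lists along the gradient. Summed over the list, the level was 2209, 1982, 2178 and 1534 CPM without Egr3, 2078, 1795, 1631 and 1072 CPM with 2 and 5669, 4073, 4880.1 and 2882 CPM with 8 or more. Of 17 measured genes 14 were at least 2-fold higher in the top bin than at 2 and all 17 were above 0 (median 1.73). Irf7, the factor that amplifies interferon induction, stood at 25.01, 20.5, 17.8 and 6.76 CPM at 2 and at 183, 96.7, 119 and 49.5 CPM in the top bin. Against all other cells the same list was mixed, with 3 of 17 genes at least 2-fold higher, Isg20 (1.78), Ifih1 (1.56) and Isg15 (1.42), and a median of 0.37.

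A closer comparison group was formed by cells with at least 10 UMIs of Nr4a1, Nr4a2 and Nr4a3 together but no Egr3 and no Foxp3, a choice made after the data were seen. There were 2532 such cells, with median depths of 5791 to 11042 UMIs per library. Of the Egr3-high cells 1415 also met the Nr4a rule, which is 85.8% of them and 29.5% of the 4791 Nr4a-high cells. Of 4964 genes, 3.32% were at least 2-fold higher and 0.121% at least 2-fold lower in the Egr3-high cells, with the same direction in all 4 libraries, and 39.2% had a pooled ratio above 0. This comparison shares the Egr3-high cells with that against all other cells, so values of the highest and lowest genes are given side by side and no overlap is counted. Egr1 was at 2.21 and Zfp36 at 2.07, close to its ratio against all other cells.

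Among the lowest genes, S1pr1 stood at 8.72 CPM in the Egr3-high cells, 4.72 CPM in the Nr4a-high cells without Egr3 and 57.9 CPM in all other cells. Il7r stood at 42.7, 15.9 and 144 CPM in the same order. Ccr7 kept its side, with 88.2, 248 and 362 CPM. All 17 interferon genes were above 0 (median 1.64), against the 39.2% of all genes, with Isg15 at 132 against 36.1 CPM. Of the 12 growth genes only 2 were above 0 (median -0.22), and Ncl stood at 4085 against 5237 CPM.

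**Figure D4:**
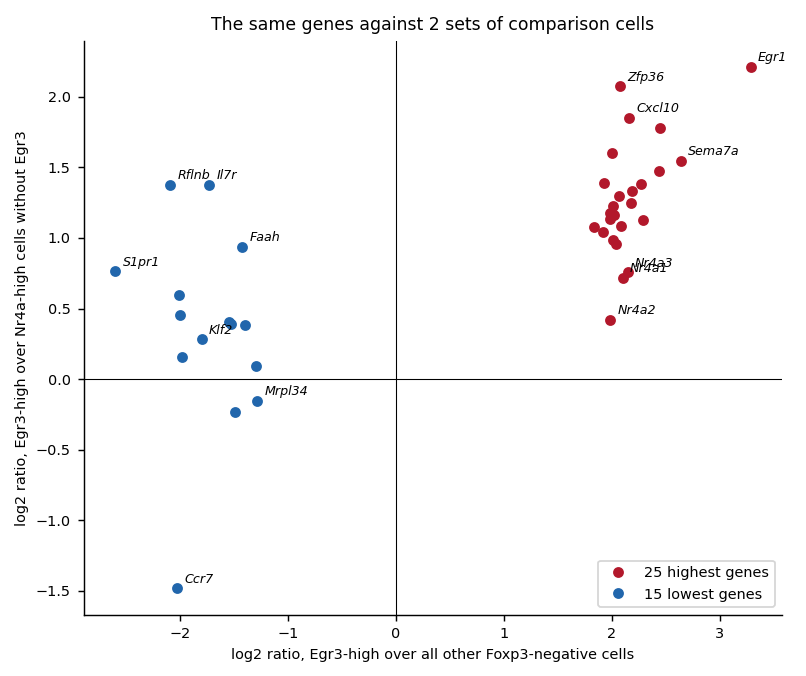
Log2 ratio of Egr3-high cells over all other Foxp3-negative cells (x axis) and over Nr4a-high cells without Egr3 (y axis) for the 25 highest (red) and 15 lowest (blue) genes; both axes share the Egr3-high cells. S1pr1 and Il7r lie below 0 on the x axis and above 0 on the y axis, and Ccr7 lies below 0 on both.

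Single Egr3-high cells combined the effector genes unevenly, at 2000 UMIs per cell. Lif and Cxcl10 were found together, with Cxcl10 in 42.6% of 277 Lif-positive cells and 15.8% of the rest, and with a difference of the same sign in all 4 libraries (21.8 to 38.4 percentage points). Il2 and Cxcl10 were found apart, with Il2 in 3.28% of 335 Cxcl10-positive cells and 9.82% of the rest, again with the same sign in all 4 libraries. Isg15 was found in 3.57% of 140 Il2-positive cells and 18.6% of the rest. Cd40lg and Tnf went together, Tnf being found in 45.6% of 480 Cd40lg-positive cells and 33.9% of the rest. Interferon genes were compared between cells with and without a Cxcl10 UMI. Of 19 such genes measured, 16 were at least 2-fold higher in the 335 Cxcl10-positive than in the 1314 Cxcl10-negative Egr3-high cells and none was lower (median log2 ratio 1.69), against 4.07% of 4788 genes at least 2-fold higher (median -0.07). Genes outside the list, such as Lif (1.74), Icam1 (1.52) and Irf1 (1.42), were higher too. The pooled split mixes libraries that differ in their share of Cxcl10-positive cells (28.2%, 17.5%, 25.3% and 16.3%) and in interferon level. Within the libraries, in the same order, 11, 14, 17 and 15 of the 19 were at least 2-fold higher, with medians of 1.34, 1.31, 2.32 and 1.33. Free RNA carries Cxcl10 and interferon transcripts in these libraries (Isg15 in 37.5% of erythroid-like barcodes), and its part in these shares was not tested.

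The share of T cells that were Egr3-high was compared between the labels. It was 6.31% (95% exact binomial interval 5.69 to 6.98) and 9.48% (8.76 to 10.2) in the libraries labelled knockout and 11.2% (9.71 to 12.8) and 11.6% (10.7 to 12.6) in those labelled wild type. The intervals cover counting error only. The means were 7.90% ± 2.24 and 11.4% ± 0.322 (SD, n = 2), a difference of -3.50 percentage points that gave p = 0.3333 in a two-sided exact permutation test, the smallest p that 2 against 2 allows. The libraries labelled knockout were also the shallower of each sex. With every cell thinned to 2000 UMIs the shares were 2.99% and 3.09% against 3.94% and 3.40%, a difference of -0.627 points, and with 1 thinned Egr3 UMI as the rule the groups overlapped (-0.698 points, p = 0.667, exact permutation test).

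Irf5, the labelled target, was examined within the Egr3-high cells before other genes. Irf5 lies at chr6:29526625-29541871 on the plus strand (GENCODE M21, GRCm38). It gave 16, 58, 1 and 13 UMIs, so it was higher in the libraries labelled knockout, against the label (log2 fold change 2.49, SE 0.44; edgeR quasi-likelihood test, adjusted p = 1.50e-04). Irf5 overlaps Tnpo3 on the opposite strand, the use of strand in counting is not given in the sources used here, and a 3′ count that lies outside the deleted exons checks nothing. The call was lost without the male library labelled knockout (1.95) or the male library labelled wild type (4.04), fits that also carry no sex term. It was also lost with all 4 libraries and no sex term (2.39; edgeR, adjusted p = 0.394), with DESeq2 (2.74) and with cells carrying other cell types' markers removed (3.32; edgeR, adjusted p = 0.0583). Directions below are those of the knockout label against the wild-type label, from UMIs summed over the Egr3-high cells of each library in a model that includes sex.

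Of 8597 genes tested in the Egr3-high cells 73 (0.849%) passed edgeR at an adjusted p of 0.05. Of these 54 rose (0.628%) and 19 fell (0.221%), and 605 genes were under an unadjusted p of 0.05. Over all genes tested, the median log2 fold change was -0.0040. Egr3 chose the cells, so no test of it is given. The other genes that mark the cells were not among those called. Egr1 was at -0.078 and Fosb at 0.31 (edgeR, adjusted p = 0.981 and 0.848). Lif was at 0.43 (edgeR, adjusted p = 0.148) and Cxcl10 at -0.31 (edgeR, adjusted p = 0.205). Lif stood at 158, 101, 167 and 53.4 TMM-scaled CPM (library totals adjusted by the trimmed mean of M values), and its log2 difference was -0.075 between the female libraries and 0.91 between the male ones. Both passed under some alternatives (edgeR). Cxcl10 did so with at least 4000 UMIs per cell (-0.44; edgeR, adjusted p = 0.0430) and without the female library labelled knockout (-0.91; 0.00282). Lif did so with the top 1% of cells left out (0.48; edgeR, adjusted p = 0.0410) and without the female library labelled wild type (1.25; 6.86e-06). No gene of the EGR and NAB, AP-1, immediate early, NF-kB, growth or receptor-proximal lists was called, with list medians between -0.10 and -0.01. The count of calls depended on the method, with 4 by DESeq2 and 2 without the sex term.

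Cdkn1a had the clearest difference among the brake genes, and it fell in the libraries labelled knockout. It gave 61, 304, 126 and 790 UMIs and 28.98, 65.03, 75.8 and 151 TMM-scaled CPM, so within each sex the library labelled knockout was below its partner. The log2 fold change was -1.27 (SE 0.14; edgeR, adjusted p = 2.20e-10), and it was -1.37 between the female libraries and -1.21 between the male ones. One cell of the male library labelled wild type held 138 of its 790 UMIs, and with the top 1% of cells left out for each gene the change was -0.95 (edgeR, adjusted p = 3.37e-06). Without that library the change was -0.61 and no longer passed (edgeR, adjusted p = 0.813). In the other cells Cdkn1a was at -0.24 (edgeR, adjusted p = 0.592). Without the sex term 2 genes were called in the Egr3-high cells, and Cdkn1a was not among them.

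The interferon list had the most calls. Of 22 genes tested 7 rose and none fell, and all 22 were above 0 (median 0.57, against 0.30 in the other cells). Isg15, a ubiquitin-like protein, stood at 289, 118, 143 and 79.1 TMM-scaled CPM (0.79; edgeR, adjusted p = 4.75e-06). Oasl2 stood at 65.6, 29.7, 26.5 and 14.6 CPM (1.15; edgeR, adjusted p = 1.45e-05), and Ifit3 at 57.5, 13.9, 15.6 and 9.003 CPM (1.23; edgeR, adjusted p = 3.22e-04). Ifit1 (0.87), Usp18 (1.12), Irf7 (0.65) and Zbp1 (0.57) were the others called, and DESeq2 called none of the 22. Nor was any called without the sex term (0 of 22) or with cells carrying other cell types' markers removed (0 of 21, median 0.53). Within each sex the library labelled knockout was higher for all 7 called genes. Of all 22, 17 were above 0 between the female libraries and 22 between the male ones. Both female libraries stood above the male library labelled knockout for some of the 7, such as Isg15. Summed over the list the Egr3-high cells held 3317, 2224, 2705 and 1683 CPM. None of the 22 was called in a test of whether the change in Egr3-high cells differed from that in the other cells, with 18 above 0 (median 0.15). The list median was 0.06 without the female library labelled knockout and 0.01 without the male library labelled wild type, fits that call none of 22 and none of 21. It was 1.16 without the female library labelled wild type, with 13 of 22 called, and 0.91 without the male library labelled knockout, with 5 of 21 called. These fits carry no sex term. With cells thinned to 2000 UMIs 0 of 16 genes were called and 9 were above 0 (median 0.03). Thinning also chose the Egr3-high cells anew, leaving 168, 192, 67 and 151 of them. The libraries labelled knockout were the shallower of each sex. Cells with exactly 2 Egr3 UMIs stood at 325, 245, 214 and 182 CPM of Egr3. The part of depth in the label differences was not tested.

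**Figure D5:**
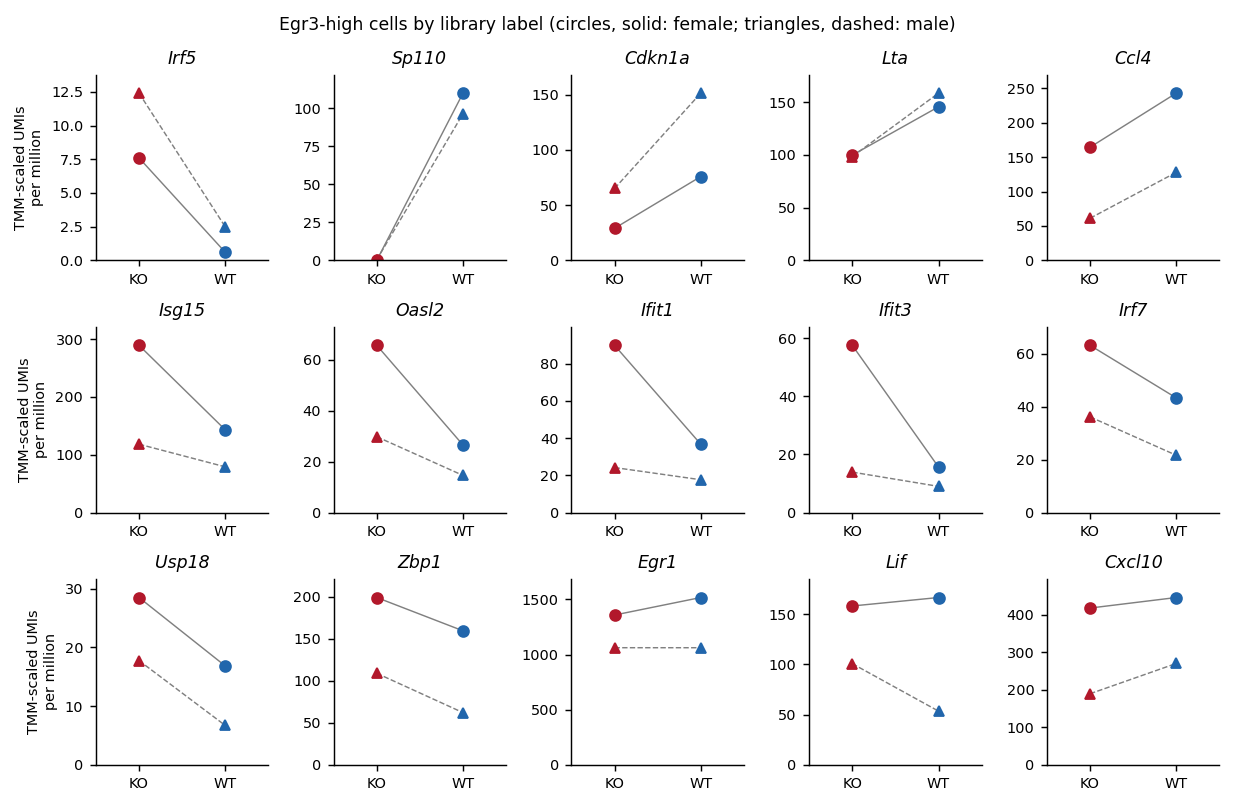
TMM-scaled CPM (y axes) summed over the Egr3-high cells of each library by label (x axes), for 15 genes; circles and solid lines are female, triangles and dashed lines male libraries. Irf5 and the 7 interferon genes lie higher in the libraries labelled knockout within each sex, Sp110, Cdkn1a, Lta and Ccl4 lie lower, and Cxcl10 lies higher in both female than in both male libraries.

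Among the effector genes, Lta fell by 0.63 on the log2 scale (99.8, 98.4, 146 and 159 TMM-scaled CPM; edgeR, adjusted p = 8.99e-04) and Ccl4 fell by 0.82 (164, 61.2, 243 and 128 CPM; edgeR, adjusted p = 3.02e-06). Ccl4 rested on few cells, 194 of 346 UMIs in the female library labelled knockout coming from 1 cell. Without the top 1% of cells it was at -1.90 (edgeR, adjusted p = 3.87e-28), and it did not pass without the female library labelled wild type (-0.24), the male labelled knockout (-0.15) or the male labelled wild type (-1.17). Tnf was at -0.37 (edgeR, adjusted p = 0.0561). Dusp6, a phosphatase for ERK, fell by 0.94 (edgeR, adjusted p = 0.00862), and Gata3 (0.90), Tnfrsf4 (0.46) and Klf2 (0.56) rose (edgeR, adjusted p = 0.00194, 0.00513 and 0.0305). Leaving out any 1 library ended the call for Tnfrsf4 and Klf2. Gata3 lost its call without any library but the female labelled wild type, as did Dusp6 and Lta.

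Sp110 and Sp140, neighbouring genes for nuclear body proteins, had the largest falls. Sp110 (chr1:85576899-85598817, minus strand) gave 0, 2, 183 and 504 UMIs, a wild-type to knockout ratio of 324 (95% exact counting interval 89.3 to 2679). Sp140 gave 4, 0, 72 and 167 UMIs and fell to -5.82 on the log2 scale (edgeR, adjusted p = 1.98e-21). Both fell in the other cells as well (-7.83 and -6.12), and both kept their calls without any 1 library. DESeq2 called Sp110 and not Sp140. Both have close copies in the mouse genome, between which reads may be split.

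Several of the remaining calls with the largest changes rested on few cells. Xcl1, a chemokine, gave 172, 82, 2 and 8 UMIs, of which 109 in the female and 66 in the male library labelled knockout came from 1 cell each. Il4 gave 56, 36, 0 and 4 UMIs, Inhba 15, 28, 0 and 2, Mki67 12, 21, 1 and 3 and Cxcr6 37, 20, 9 and 5, all higher in the libraries labelled knockout. None of these 5 was called without the male library labelled wild type, nor Inhba and Mki67 without the male labelled knockout, nor Mki67 and Cxcr6 without the female labelled knockout. Inhba had a knockout to wild-type ratio of 22.8 (95% exact counting interval 5.94 to 194). Over the 73 called genes, 11 had a library in which 1 cell held over 50% of the UMIs. Plagl1 (1.37), a zinc-finger factor, and Rragd (1.28), a GTPase of the nutrient-sensing pathway, gave 52, 129, 30 and 37 and 36, 53, 16 and 19 UMIs and were also called with the top 1% of cells left out, but not without the male library labelled knockout or the male library labelled wild type. Rragd was not called without the female library labelled knockout either. Hist1h2ap (1.60), Ctla2a (1.37), 1700120C14Rik (1.98) and Gm26885 (-1.32) were the rest of the 15 largest, and all 4 lost their calls without the male library labelled wild type. Of the 73 genes 18 were also called in the other cells, where 66 of 12364 were, and 67 had the same sign there. Both cell groups come from the same libraries, so a shared sign is no replication.

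The test of the difference between Egr3-high and other cells called 22 of 10794 genes (0.204%) by edgeR, with 467 at an unadjusted p under 0.05. Cdkn1a had a difference of -1.11 (SE 0.13; edgeR, adjusted p = 1.00e-14), which was -0.59 and no longer passed with the top 1% of cells left out (edgeR, adjusted p = 0.211) and -0.34 without the male library labelled wild type (edgeR, adjusted p = 1.00). Leaving out those cells left 3 calls, with Klf2 and Hspa8 among them. Klf2 differed by 0.46 (edgeR, adjusted p = 0.0389) and Hspa8, a constitutive chaperone, by 0.19 (edgeR, adjusted p = 1.06e-04). Klf2 lost its call without any 1 library, and Hspa8 without any but the male labelled knockout. Of the other genes in the first 10 by adjusted p, Xcl1, Hist1h1b, Cst3, Ifng, Plac8, Gzmb, Gm26885 and Hist1h2ap each had a library in which a single Egr3-high cell held most of the UMIs, whereas Ramp3, a receptor activity-modifying protein, did not (178, 495, 271 and 601 UMIs, difference -0.56; edgeR, adjusted p = 9.91e-05). Ramp3 lost its call without either female library (-0.50 and -0.48).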

How the data were processed

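Droplet 3′ RNA libraries were made from 4 samples of CD4 T cells, 1 per sex and genotype label. The values are UMI counts per gene and barcode, which the authors deposited for all barcodes without normalization, per the file headers. Cell Ranger 6.0.2 and the build mm10 are named in the submitters' processing notes, and the annotation and use of strand are not given in the sources used here. Of the gene IDs in the files 99.6% matched GENCODE M21 (GRCm38), the source of gene coordinates and exons. The cells, gene lists and named genes were chosen with earlier results of these data known.

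Levels are UMIs summed over cells, per 1000000 (CPM). The profile pooled the libraries, counted genes with a mean level of 20 CPM or more, used a pseudocount of 1 CPM and was not tested. Named were genes of the lists, the 25 highest and 15 lowest genes with the same direction in 4 libraries, the 5 markers, called genes of the lists, the 15 called genes with the largest change and the same direction in both sexes, and the first 10 genes of the difference test by adjusted p. UMIs summed per library were tested in R 4.3.3 with the quasi-likelihood test of edgeR 4.0.16, TMM factors, its expression filter, terms for sex and label, and Benjamini-Hochberg adjustment at 0.05 over all genes tested. The difference test fitted both cell groups of each library in 1 model with terms for library, cell state, state by sex and state by label, and tested the last. DESeq2 1.42.0, other normalizations and filters, cell thresholds, thinning to 2000 UMIs, removal of doublet-scored cells (Scrublet in scanpy 1.11.5, at 0.8% per 1000 cells) and leaving out each library were alternatives. On simulated counts with 200 changed genes the edgeR test of the Egr3-high cells recovered 11% of log2 changes of 0.5 (8431 genes), 77% of 1 (8444 genes) and 96% of 2 (8460 genes). No barcode was corrected for free RNA, and doublet-scored cells were kept in the main analysis. Promoter windows and their letters are RefSeq's on GRCm38.p6. Results for a few genes are not reported here, though the counts over lists and tests include them.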

Additional observations from a re-analysis of the deposited data

Results flagged for a closer look

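For 5 called genes the libraries labelled knockout and wild type differed in opposite directions in the sexes, and this opposition was not tested, since each sex has 1 library per label. On the log2 scale Cst3 was at 0.40 in female and -1.43 in male libraries, and Plac8 at 1.003 and -2.15. Ifng was at -2.95 and 0.71, Gm19951 at -0.040 and 1.38, and Gm42418 at -0.90 and 0.073. For Cst3, Plac8 and Ifng a single cell held 206 of 346, 99 of 110 and 68 of 80 UMIs in the library with the highest count.

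For 22 genes the label difference in Egr3-high cells departed from that in the other cells by a test of the difference itself (edgeR). Among those reported, the differences of log2 fold changes were positive for Xcl1 (4.31), Hist1h1b (3.70), Hist1h2ap (1.76), Hspa8 (0.19), 1700120C14Rik (1.99), Ube2c (8.56), Inhba (4.42) and Klf2 (0.46). They were negative for Cdkn1a (-1.11), Cst3 (-1.11), Ifng (-2.68), Plac8 (-1.93), Gzmb (-5.27), Gm26885 (-2.16), Ramp3 (-0.56), Car1 (-10.72), S100a6 (-3.76), Pou2f2 (-0.52), Lgals3 (-4.02), Itpkb (-0.48) and Iglc1 (-8.15). Where a group is near 0 UMIs, as for Car1, Ube2c, Iglc1 and Gzmb, the fitted value depends on the prior count and is no measured fold. With the top 1% of cells per gene left out, 3 of the 22 were called.

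Among 1131 barcodes that passed the depth and mitochondrial filters without a Cd3 UMI, 90 (7.96%) held at least 2 Egr3 UMIs. They were used in no comparison.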

How the results depend on the processing

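The count of genes called by label in the Egr3-high cells (73) was 4 with DESeq2, 2 without the sex term, 26 with at least 3 Egr3 UMIs, 4 after thinning to 2000 UMIs, 39 with at least 4000 UMIs per cell, 24 without doublet-scored cells, 7 without cells carrying other cell types' markers, and 8 to 154 with a library left out. Fits with a library left out carry no sex term. The count for the difference test (22) was 3 without the state by sex term, 3 without the top 1% of cells per gene (chosen after the data were seen), and 14 to 61 with a library left out. The count of higher genes in the profile was 154 with at least 3 Egr3 UMIs, and the count of lower genes was 15 with a pseudocount of 10 CPM and 6 against Nr4a-high cells. The share difference lay between -1.91 and -5.08 points with a library left out.

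Against the Nr4a-high cells these log2 ratios changed sign: S1pr1 0.77, Rflnb 1.38, Arl4c 0.60, Ighm 0.46, Txnip 0.16, Klf2 0.28, Il7r 1.38, Cdkn1b 0.41, Klf3 0.39, Faah 0.94, Dusp10 0.38, Pdk1 0.090, Ccl4 -0.26 and Tcf7 0.075. By label, thinning reversed Fosb (-0.30), Lif (-0.087) and Klf2 (-0.37), at least 4000 UMIs per cell reversed Fosb (-0.16), and removal of marker-bearing cells reversed Ctla2a (-0.055). With a library left out, values that changed sign ranged from -0.33 to 0.18 for Egr1, -0.91 to 0.23 for Cxcl10, -0.39 to 1.25 for Lif, -0.49 to 2.14 for Hist1h2ap, -0.024 to 1.71 for Gata3, -0.082 to 1.28 for Zbp1, -0.030 to 1.85 for Ifit1 and -3.72 to 1.45 for Ifng. Egr1 and Cxcl10 reversed without the female labelled wild type or the male labelled knockout, Ifng without the former and Hist1h2ap without the latter. Lif reversed without the female labelled knockout or the male labelled wild type, Ifit1 without the former, and Gata3 and Zbp1 without the latter. In the difference test the ranges were -5.28 to 0.12 for Ifng, -2.49 to 0.12 for Plac8 and -10.01 to 4.37 for Gzmb, and Hist1h2ap was -0.36 without the top 1% of cells. The cause was not tested.

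Of 427 alternative values for genes named by label, 227 kept direction and side of the threshold, 180 kept direction but lost the call and 4 gained one. Of the 371 values for genes called in the main analysis, 184 kept both. The thinned fit tested 3912 genes in place of 8597. Sex, which has 1 library of each label, is a term of the model and so already matches libraries within a sex.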

Other observations

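Cxcl10, Lif and Il2 in the Egr3-high cells stood higher in both female than in both male libraries. In TMM-scaled CPM, in the order female labelled knockout, male labelled knockout, female labelled wild type and male labelled wild type, Cxcl10 was at 417, 189, 445 and 269.7, Lif at 158, 101, 167 and 53.4 and Il2 at 302, 214, 388 and 166. The thinned shares of cells with a UMI followed the order for Cxcl10 and Lif but not for Il2 (7.89%, 8.16%, 10% and 8.72%). In summed level Tnf (269, 279, 350.2 and 357) and Lta (99.8, 98.4, 146 and 159) did not follow it. These were picked after their values were seen and no test of sex was made. Sex and library preparation cannot be told apart with 2 libraries of each.

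Of the 73 genes called by label in the Egr3-high cells, 6 were called in at least 10 of 14 alternatives. Besides Sp110, Sp140 and Cdkn1a they were Gpr183, the oxysterol receptor that guides T cells within lymphoid tissue, Jaml, a junctional adhesion molecule, and Ncoa7, all chosen after their values were seen. Gpr183 stood at 762, 544, 517 and 306 TMM-scaled CPM (log2 fold change 0.70, adjusted p = 1.16e-07, edgeR). Jaml stood at 73.2, 42.6, 28.9 and 19.3 CPM (1.22) and Ncoa7 at 240.4, 153, 119 and 77.2 CPM (1.000). Gpr183, Jaml and Ncoa7 were not called without the sex term, where no gene was called higher.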
